A study of Homo sapiens with 9 samples.

Results

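H19, IGF2, KCNQ1 and CDKN1C are imprinted genes that lie close together near the short-arm end of human chromosome 11, and the contacts of the DNA around them were compared between growing and senescent fibroblasts. They were chosen by their positions in hg19, and are 4 of 64486 annotated genes. The rule used no measured value, but earlier results of these data were known when it was made. In the annotation used here H19 covers chr11:2016396-2025782 on the minus strand, IGF2 chr11:2150342-2179621 on the minus strand, KCNQ1 chr11:2465884-2870335 on the plus strand and CDKN1C chr11:2904443-2907005 on the minus strand. The window described runs from 1.2 to 4 Mb and holds 70 of the 77404 bins of 40 kb into which the authors divided the genome. The H19-IGF2 domain is taken here as the 5 bins from the one with H19 to the last one with IGF2. The KCNQ1-CDKN1C domain is the 11 bins with values from KCNQ1 to CDKN1C.

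All libraries came from IMR90, a line of human lung fibroblasts, at passage 20 to 25. Every cell population, the growing ones included, carried ER:HRAS(G12V), a fusion of the oestrogen receptor with oncogenic RAS that stays off until 4-hydroxytamoxifen (4OHT) is added. Growing cells received no 4OHT, and cells in RAS-induced senescence (RIS), a lasting arrest of the cell cycle, received 100 nM 4OHT for 6 days. Hi-C, in which DNA segments that lie together in the nucleus are ligated and sequenced, had 3 growing and 2 RIS libraries. An MSCV vector is listed only for growing replicate 3. Capture Hi-C, in which baits enrich a Hi-C library for chosen regions, had 2 growing and 2 RIS libraries. The study's methods call the replicates biological, but neither they nor the labels say whether the replicates were separate cultures, so the p-values measure the spread between libraries, which may be technical.

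At an imprinted gene only the copy from the mother or only the copy from the father is active. H19 is a long non-coding RNA made from the maternal copy, and IGF2 is a growth factor made mainly from the paternal copy. Between them lies a control region where CTCF, an architectural protein that anchors chromatin loops, binds the unmethylated maternal DNA and keeps enhancers away from IGF2. CDKN1C encodes p57, an inhibitor of cyclin-dependent kinases, and is expressed from the maternal copy. It is governed by a further control region inside KCNQ1, a potassium channel gene, where the antisense RNA KCNQ1OT1 starts on the paternal copy and silences the neighbouring genes in cis. Reads of both copies were pooled in these matrices, so maternal and paternal contacts cannot be told apart.

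A form of the CTCF motif found in the control region of H19 occurred 21 times on either strand of chromosome 11 in GRCh37 and in 0.517% of its 40 kb bins. In the window there were 6 matches, all on the minus strand and all in the bins of H19 and CDKN1C. The matches below are shown because they lie at the ends of contacts described further on. Capitals mark the motif and the lower-case letters are the bases beside it, written from 5′ to 3′ on the strand of the match. The form searched was that of the capitals in the first match, with any base allowed at the sixth and the ninth letter. The first of the H19 matches is at chr11:2021198-2021211, the variant of it at chr11:2022010-2022023, and 3 more starting at 2023443, 2023844 and 2024249 had the same letters as the first. All 5 fell in an intron of H19 as annotated here, because this annotation extends H19 upstream over the control region. The match beside CDKN1C, at chr11:2907620-2907633, was between genes, just upstream of CDKN1C.
H19 first match: tggCCGCGCGGCGGCAGtgc
H19 second match: tggCCGCGTGGCGGCAGtgc
CDKN1C upstream: aggCCGCGCGGGGGCAGccg

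A general form of the CTCF motif, searched as the capitals of the IGF2 match printed next with any base at the third, the fifth and the ninth letter, was far more common and was present in 21.7% of the bins of chromosome 11 and in 57.1% of the bins of the window. Examples on the plus strand are shown from IGF2 and, on both strands, from an intron of KCNQ1 that lies in a strong partner bin of CDKN1C. Their first bases were at 2175813 in IGF2, and at 2552190 and 2552788 in KCNQ1. All these matches describe letters in the reference, and CTCF binding was not measured in the data used here.
IGF2, plus strand: cgcCCCCCAGGTGGCaag
KCNQ1, plus strand: tcgCCCCCAGGTGGCctg
KCNQ1, minus strand: tagCCACCAGGTGGCgca

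The depth recovered from the balanced values ranged from 154318992 to 180775315 contacts per growing and from 109967509 to 150689993 per RIS Hi-C library. The RIS group was thus the shallower of the groups, and the part of depth in the results was not tested. Of the 70 bins of the window, 65 had values in all 5 libraries. The window was thinly covered. Its median bin held 34.4% of the contacts of the median bin of the genome in growing cells and 36.5% in RIS cells. The window bins held a median of 7 HindIII sites, against 12 for chromosome 11, and a median GC content of 52.3% against 40.2%. The H19 bin had 4 such sites, a GC content of 62.2%, and 13.2%, 12.4% and 13.5% of the median coverage in growing and 14.7% and 14.4% in RIS libraries. The first bin of KCNQ1 and the first bin of MRPL23, from 1960001 to 2000000, had no values in any library. The H19 bin also holds the end of MRPL23. Balancing multiplies the few contacts of such bins by large factors, and many block and pair results are therefore also given for contacts that were not balanced. No such values are given for single partner bins in Hi-C, or for the insulation and A/B scores described below.

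**Figure D1:**
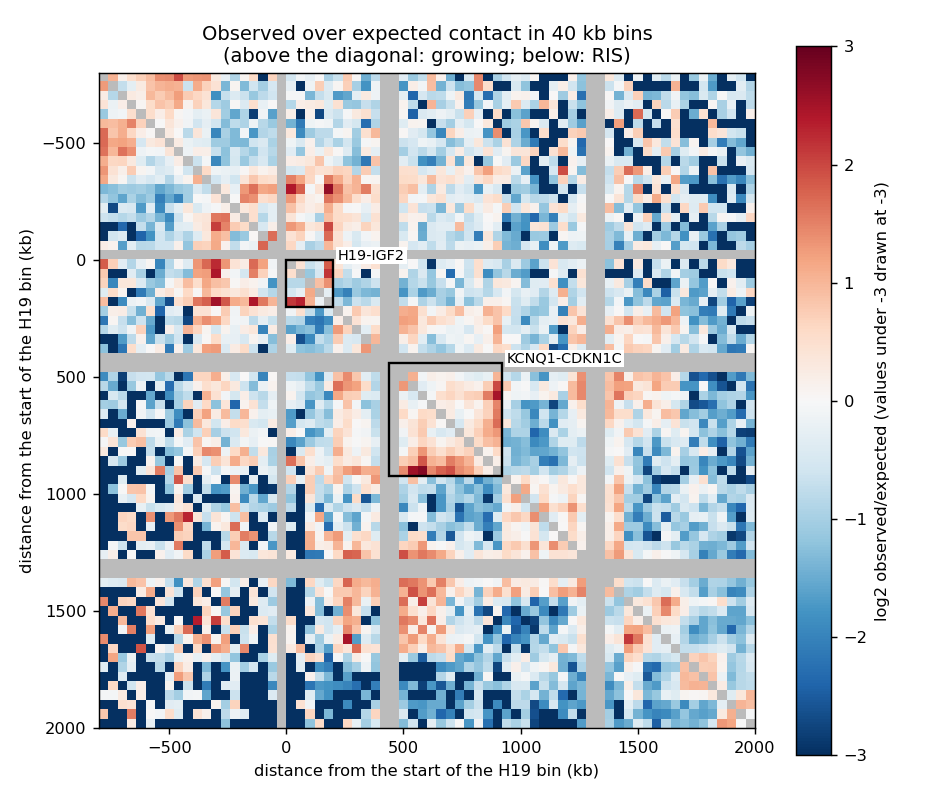
Map of contact between 40 kb bins of the window, as log2 of observed over expected contact, with growing cells (mean of 3 libraries) above and RIS cells (mean of 2 libraries) below the diagonal. Both axes give the distance in kb from the start of the H19 bin, grey marks the diagonal and bins without values, and boxes mark the domains. In these balanced values contact was raised inside the H19-IGF2 and KCNQ1-CDKN1C domains and lowered between them in both states.

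In balanced values both imprinted domains were compact in growing and in RIS cells, and they touched each other little. Hi-C contact was expressed as observed over expected, the mean balanced contact of a block of bin pairs over the chromosome 11 average at the same distances. All values below are in the order of the replicate numbers. The H19-IGF2 domain measured 1.70, 1.80 and 1.63 in growing libraries against 1.83 and 1.89 in RIS libraries. The KCNQ1-CDKN1C domain measured 1.59, 1.57 and 1.56 against 1.81 and 1.81. For both domains each RIS value lay above every growing value. Pairs between the domains measured 0.704, 0.728 and 0.631 against 0.909 and 0.526, with growing values inside the range of the RIS values. Pairs within the domains had on average 2.32 times the observed over expected contact of pairs between them in growing and 2.63 times in RIS cells. The RIS libraries, at 1.99 and 3.47, lay on either side of all growing ones. Without balancing every block was below the average. The H19-IGF2 domain then measured 0.387, 0.394 and 0.397 in growing against 0.463 and 0.499 in RIS libraries. The KCNQ1-CDKN1C domain measured 0.602, 0.567 and 0.595 against 0.746 and 0.760. Pairs between the domains were lower still, at 0.206, 0.175 and 0.186 against 0.245 and 0.190.

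Of the 3 blocks, the KCNQ1-CDKN1C domain separated the states best. The RIS minus growing difference was 0.20 on the log2 scale, with a two-sided exact permutation p of 0.1, the smallest that 3 against 2 libraries can give, and 0.383 after adjustment over the 23 blocks tested. It lay between 0.20 and 0.21 when any single library was left out. Growing replicate 3 and RIS replicate 2 held more duplicate reads before filtering than the other libraries. The difference was 0.22 between these 2 libraries and 0.19 among the other 3. Without balancing it was 0.36. The H19-IGF2 domain differed by 0.12, with an exact permutation p of 0.2, and by 0.29 without balancing. It was 0.07 among the 3 libraries with fewer duplicates and 0.21 between the 2 with more. Without balancing, other DNA of the window with itself was also higher in RIS. The difference was 0.28 for the stretch between the domains, 0.21 for the flank towards the chromosome end and 0.05 for the flank towards the centromere. With balancing these were 0.07, -0.06 and 0.03. Between the domains the difference was 0.01, with an exact permutation p of 1, and 0.19 without balancing. The RIS libraries disagreed there, and leaving out RIS replicate 1 gave -0.39 while leaving out RIS replicate 2 gave 0.40.

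**Figure D2:**
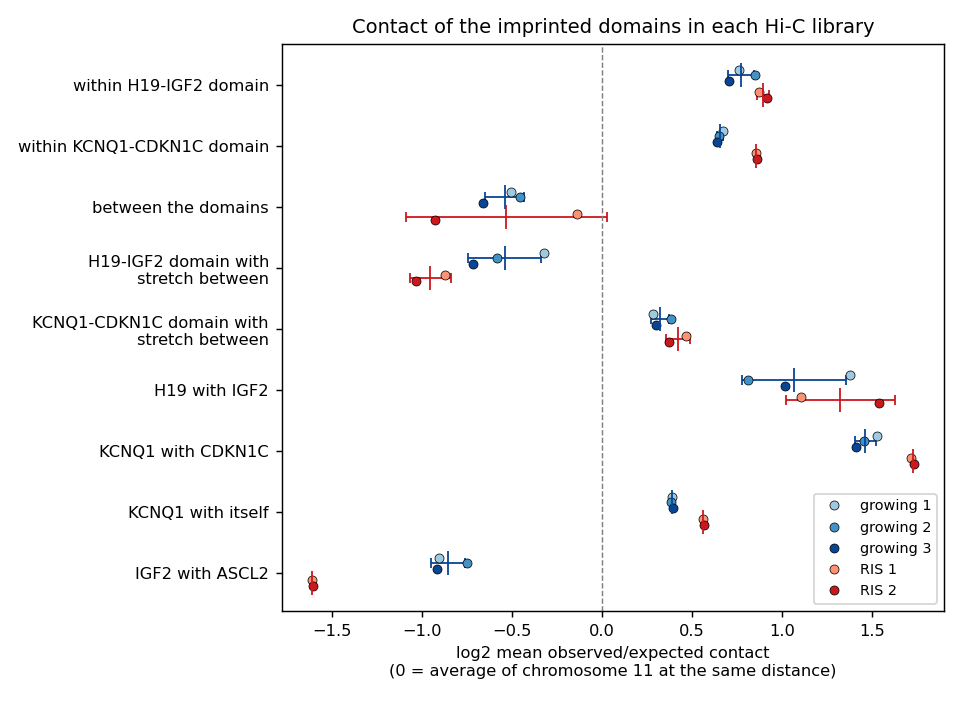
Contact of 9 blocks of the imprinted domains as log2 of mean observed over expected contact, where 0 is the average of chromosome 11 at the same distance. Points are Hi-C libraries, vertical ticks are group means and horizontal bars are 1 SD over 3 growing or 2 RIS libraries. RIS points lie to the right of all growing points within both domains and to the left of them for the H19-IGF2 domain with the stretch between and for IGF2 with ASCL2.

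The higher contact of the KCNQ1-CDKN1C domain was seen for contacts inside the KCNQ1 gene and for contacts of KCNQ1 with CDKN1C. KCNQ1 with itself measured 1.31 in each growing library and 1.48 in both RIS libraries, over 45 bin pairs. The difference was 0.17 on the log2 scale (exact permutation p = 0.1), and 0.32 without balancing. KCNQ1 with CDKN1C, over 10 bin pairs, measured 2.88, 2.74 and 2.66 in growing and 3.29 and 3.32 in RIS libraries, from 426, 437 and 459 against 378 and 488 recovered contacts. The groups did not overlap, and the difference was 0.26 (exact permutation p = 0.1), and 0.46 without balancing. Taken over KCNQ1 with itself in the same library, contact of KCNQ1 with CDKN1C was higher in RIS by 0.09 (exact permutation p = 0.2, and 0.39 after adjustment over the 7 such contrasts, which were chosen after the block values were seen). Another contrast, contact between the domains over contact within the KCNQ1-CDKN1C domain, differed by -0.19 (exact permutation p = 0.8), and the groups overlapped. With a library left out it ran from -0.59 to 0.20.

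The bins that hold KCNQ1OT1, the antisense RNA whose start is the control region for CDKN1C, gave a difference that varied with the libraries used. Their contact with CDKN1C was 2.92, 3.06 and 2.57 in growing against 3.08 and 3.22 in RIS libraries, a difference of 0.15 (exact permutation p = 0.2), and 0.36 without balancing. It was 0.08 without growing replicate 3 and 0.20 without growing replicate 2, and 0.04 among the 3 libraries with fewer duplicates and 0.33 between the 2 with more. The KCNQ1OT1 bins with themselves stayed close to the chromosome average and overlapped between the states, at 1.05, 1.08 and 0.92 against 0.981 and 1.08. PHLDA2, a maternally expressed growth suppressor beyond CDKN1C, had less contact with CDKN1C than average at this distance, at 0.539, 0.527 and 0.531 in growing and 0.343 and 0.562 in RIS libraries, and the groups overlapped.

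The strongest partners of CDKN1C lay inside KCNQ1, at the bin with the printed KCNQ1 motif matches and the one after it. The bin that starts at 2560001 had an observed over expected contact of 6.71, 4.17 and 5.79 in growing and 6.28 and 7.27 in RIS libraries. The bin before it, starting at 2520001, had 3.55, 3.50 and 4.76 in growing and 5.48 and 6.23 in RIS libraries. Only at the latter did the groups not overlap, with 32, 31 and 49 recovered contacts against 34 and 52. The next partner was the bin at 2680001 with part of KCNQ1OT1, at 2.88, 3.50 and 3.21 against 3.16 and 4.42. These 3 bins were the highest of 62 partner bins in both states, in the same order. The partners were chosen on the growing libraries, so their height there is a description. KCNQ1 spans 10 bins with values and CDKN1C 1, so the strengths of their partners are not directly comparable. KCNQ1 as a whole had no partner outside its own domain as strong as those of CDKN1C. Its highest were the bin of ZNF195, a zinc finger gene, at 2.16, 1.37 and 1.28 in growing and 1.74 and 2.13 in RIS libraries, and the bins at 2200001 and 2240001 past TH. The latter measured 1.37, 1.52 and 1.56 against 1.67 and 1.58, and its groups alone did not overlap. The whole KCNQ1-CDKN1C domain with the stretch between the domains measured 1.22, 1.3 and 1.23 against 1.38 and 1.29, and the groups overlapped. On its other side, with the centromeric flank, the domain measured 0.773, 0.736 and 0.761 against 0.826 and 0.826, and the groups did not overlap. The difference there was 0.13 (exact permutation p = 0.1), and 0.21 without balancing.

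**Figure D3:**
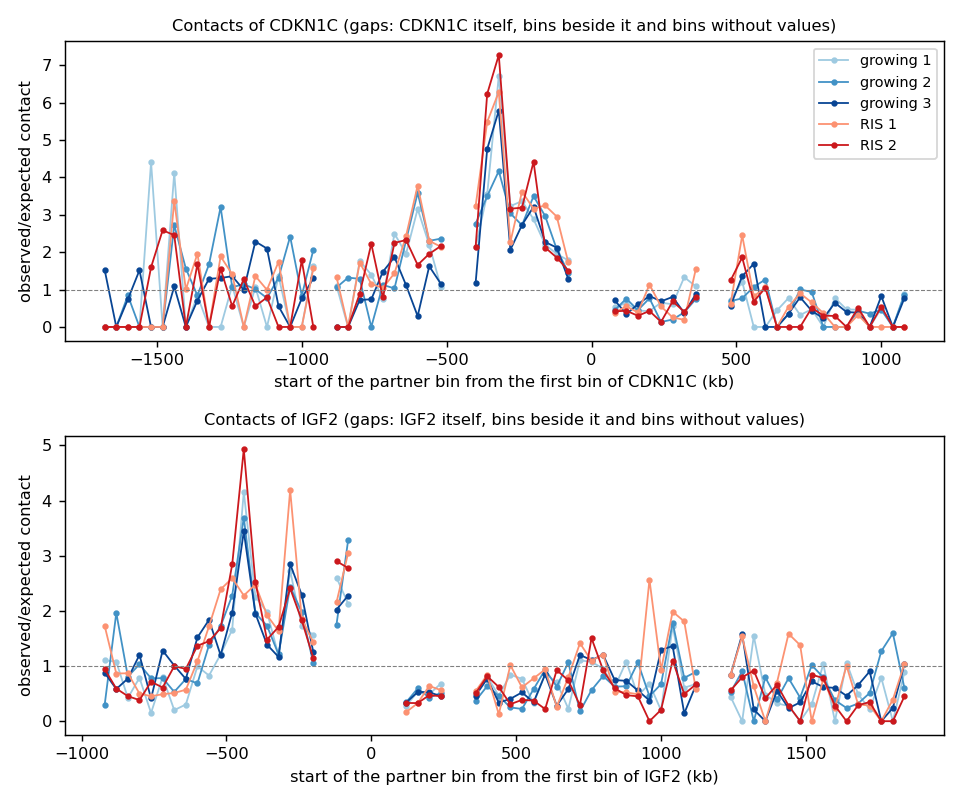
Observed over expected contact (vertical axes) of CDKN1C and of IGF2 with every other 40 kb bin of the window, in each Hi-C library, against the start of the partner bin in kb from the gene's first bin. A value of 1, the dashed line, is the chromosome 11 average at that distance. CDKN1C peaks in KCNQ1 at 6.71, 4.17 and 5.79 in growing and 6.28 and 7.27 in RIS libraries.

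In balanced values H19 and IGF2 were in contact above the average for their distance in every Hi-C library, though the H19 bin held few contacts. Over the 2 pairs of the H19 bin with an IGF2 bin the value was 2.60, 1.75 and 2.02 in growing against 2.16 and 2.90 in RIS libraries. The groups overlapped, and the exact permutation p was 0.4. Without balancing the value was below the average in every library, at 0.526, 0.331 and 0.419 in growing and 0.509 and 0.688 in RIS libraries. Most of the contact came from the second IGF2 bin, which also holds INS, the insulin gene, and TH, tyrosine hydroxylase. It had 66, 41 and 52 recovered contacts with the H19 bin in growing and 42 and 75 in RIS libraries, and limma gave a log2 fold change of 0.28 with a standard error of 0.32 (adjusted p = 0.77). The highest partner of the H19 bin was the KRTAP5-6 bin, at 4.95, 6.10 and 4.79 in growing and 4.63 and 4.80 in RIS libraries, which rested on at most 19 contacts in a library. The bin of this keratin-associated protein gene was also the highest partner of IGF2, at 4.16, 3.69 and 3.44 in growing and 2.28 and 4.93 in RIS libraries. Next for IGF2 came the bin of SYT8, TNNI2 and LSP1, at 2.73, 2.44 and 2.85 against 4.19 and 2.41, and the bin after that of H19, at 2.13, 3.28 and 2.28 against 3.05 and 2.78. In all of these the groups overlapped.

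Across the domains few contacts joined the members. The H19 bin and the CDKN1C bin shared 1, 1 and 0 recovered contacts in growing and 1 and 0 in RIS libraries, so no difference was detectable at this depth. IGF2 and CDKN1C shared 6, 5 and 9 against 5 and 8 contacts over 2 bin pairs, an observed over expected contact of 1.08, 0.563 and 1.11 in growing against 1.10 and 1.51 in RIS libraries, so near the average for the distance in most libraries, and the groups overlapped. IGF2 and KCNQ1 shared 122, 105 and 119 against 90 and 96 contacts over 20 bin pairs, with an observed over expected contact of 0.660, 0.532 and 0.576 in growing and 0.732 and 0.518 in RIS libraries. H19 with KCNQ1 measured 0.883, 0.841 and 0.719 in growing and 1.38 and 0.342 in RIS libraries, and the RIS values lay on either side of the growing ones.

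In balanced values, contact of the H19-IGF2 domain with the DNA on its far side was lower in RIS, by an amount that depended on balancing. Past TH lies a stretch with ASCL2, a maternally expressed transcription factor gene, and TSPAN32, a tetraspanin gene. The H19-IGF2 domain with this stretch measured 0.80, 0.666 and 0.608 in growing and 0.546 and 0.487 in RIS libraries over 25 bin pairs. Both RIS values were below all growing values, and the difference was -0.41 (exact permutation p = 0.2, adjusted 0.511). Without balancing it was -0.14 and the groups overlapped, at 0.1753, 0.1406 and 0.1538 in growing against 0.1408 and 0.1415 in RIS libraries. IGF2 with ASCL2 measured 0.532, 0.594 and 0.529 in growing and 0.327 and 0.328 in RIS libraries, from 31, 33 and 32 against 16 and 19 contacts over 2 bin pairs. The difference was -0.75 (exact permutation p = 0.1, adjusted 0.383), between -0.78 and -0.70 with any single library left out, and -0.45 without balancing. In the opposite direction, towards the chromosome end, the H19-IGF2 domain measured 1.2, 1.33 and 1.32 in growing and 1.42 and 1.46 in RIS libraries, a difference of 0.17 (exact permutation p = 0.1), and 0.38 without balancing.

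Contact across this side was also taken over the contact within the H19-IGF2 domain of the same library. A scaling of the whole library is already removed by the expected contact of that library. The ratio does not remove a scaling of the bins of the stretch or of ASCL2. On the log2 scale the stretch past TH over the domain itself was -1.08, -1.44 and -1.42 in growing against -1.75 and -1.95 in RIS libraries, a difference of -0.54, and -0.43 without balancing, of which the higher contact within the domain made up 0.29. IGF2 with ASCL2 over the domain was -1.67, -1.60 and -1.62 in growing against -2.49 and -2.53 in RIS libraries, a difference of -0.87, and -0.74 without balancing. In neither did the groups overlap, and both had an exact permutation p of 0.1 (adjusted 0.35 over the 7 contrasts).

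Tests of single bin pairs called little in the window. By limma on balanced values 3 of the 1214 pairs tested passed a false discovery rate of 5%, all lower in RIS, with 131 at an unadjusted p under 0.05. Over the genome 0.0388% of the 1959056 pairs tested were called, 0.0312% as lower. The called pairs joined the bins at 1200001 and 1840001, the bin of TOLLIP at 1320001 with the first IGF2 bin at 2120001, and the bin of BRSK2 at 1440001 with the bin at 2240001 past TH. The growing libraries held 2, 2 and 3 recovered contacts for each of the first 2 pairs and 4, 5 and 4 for the last, and the RIS libraries held 0. The adjusted p was 0.0282, 0.0310 and 0.0391. No fold change is given for so few contacts, and leaving out any single library left at most 1 call. With the replicate block, with the duplicate class as a block and on contacts that were not balanced 0 pairs were called, and voom called none of the 3.

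By voom on the recovered contacts, before balancing, 18 pairs of the window were called and all were higher in RIS, while 0.818% of all pairs were called higher. Of these, 14 joined neighbouring bins, and none reached beyond 160 kb. Their count was 6 without growing replicate 1, 10 without growing replicate 2, 19 without growing replicate 3, 4 without RIS replicate 1 and 1 without RIS replicate 2. Within the domains limma called 0 of 65 pairs, with 2 at an unadjusted p under 0.05, and voom called 4. Between the domains limma and voom both called 0 of 53 pairs. Balancing shifted the values of the window. The median log2 fold change of its tested pairs was 0.05 by limma and 0.23 by voom, and that over all pairs was 0.00 by both. In the KCNQ1-CDKN1C domain 43 of 55 pairs had a log2 fold change above 0 and in the H19-IGF2 domain 7 of 10, with medians of 0.10 and 0.11 by limma. The share above 0 was 53.6% over all tested pairs of the window and 49.7% over the genome. Both shares include pairs up to 2 Mb apart, and none was taken for other pairs as close as those within the domains.

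The insulation score, the log2 of contact across a position relative to the chromosome mean, located the borders of the domains. Scores lower than those around them mark borders. With 520 kb to each side, 24 of 69 positions of the window passed a false discovery rate of 5% in limma, 18 higher and 6 lower in RIS. Over the genome 53% of positions were called, 25.5% as higher and 27.5% as lower. The window thus held a smaller share of called positions than the genome, and its share called higher was close to that of the genome. Without RIS replicate 1 the count of called positions was 12. Every position from 2520000, inside KCNQ1, to 2880000, between KCNQ1 and CDKN1C, was called and rose. With 200 kb to each side several of these positions were not called, among them 2560000 (0.0016) and 2880000 (0.0008). Called rises with 520 kb also lay outside the domain, as from 2960000 to 3080000 and at 3200000. The largest of the window were 0.23 at 3520000 and 0.24 at 3560000. At 2800000, where the rise was 0.20 with a standard error of 0.03 (adjusted p = 0.00076), the score was 0.50, 0.48 and 0.46 in growing against 0.70 and 0.66 in RIS libraries.

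With 200 kb to each side 21 of 69 positions were called, 19 higher and 2 lower in RIS. Over the genome 43.1% of positions were called, 17.7% as higher and 25.3% as lower. The 2 lower positions were the edges of the imprinted domains that face the centromere. At 2920000, between CDKN1C and SLC22A18, a transporter gene, the score was -1.09, -1.0 and -1.15 in growing against -1.37 and -1.33 in RIS libraries, and it fell by 0.27 (standard error 0.05, adjusted p = 0.0017). At 2200000, just past TH, the libraries measured -0.52, -0.72 and -0.82 in growing and -0.84 and -1.05 in RIS libraries, and the score fell by 0.26 (standard error 0.08, adjusted p = 0.029). The groups did not overlap at either position. The scores are of balanced values, and whether the falls hold without balancing was not tested. With 520 kb to each side the groups overlapped at both, and 2920000 was not called (-0.05, adjusted p = 0.31) while 2200000 was (-0.21, adjusted p = 0.038). The count of called positions was 14 without growing replicate 1, 13 without growing replicate 2 and 13 without RIS replicate 1.

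Borders, local minima with a prominence of at least 0.1, were mostly shared by the states around the members. With 520 kb to each side all 5 libraries had borders at 1880000, 2080000, 2200000, 2400000 and 2920000, and further on at 3040000, 3440000, 3680000 and 3840000. The border at 2080000 lies between H19 and IGF2, and with 200 kb to each side it was called only in growing replicate 3 and RIS replicate 2. With 520 kb to each side 2080000 was a shallow dip that stayed above the chromosome mean. Its scores ran from 0.29 (RIS replicate 2) to 0.47 (growing replicate 2). The prominence of this dip ran from 0.13 (growing replicate 3) to 0.18 (growing replicate 2). By contrast, scores at 2200000 ran from -0.62 (RIS replicate 2) to -0.23 (growing replicate 1). The border at 1880000 also stayed above the mean. The shorter reach placed borders in all 5 libraries at 2480000, 2560000 and 2680000 inside KCNQ1 too, and at 1280000 and 1960000. The borders at 1960000 and 2480000 lie beside a bin without values in any library. That at 2400000 lies beside a bin with values in only 4 libraries. The score averages balanced contact, not corrected for distance, over the pairs with values, so it lacks the closest pairs there. The part of these gaps in the borders was not tested. At 2320000 it placed 1 in growing replicate 3 and in both RIS libraries. Not all borders of the window are listed. A border at 1680000 was called in the 3 growing libraries and 1 at 1600000 in the 2 RIS libraries with 520 kb to each side, but with 200 kb to each side both were called in all 5.

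**Figure D4:**
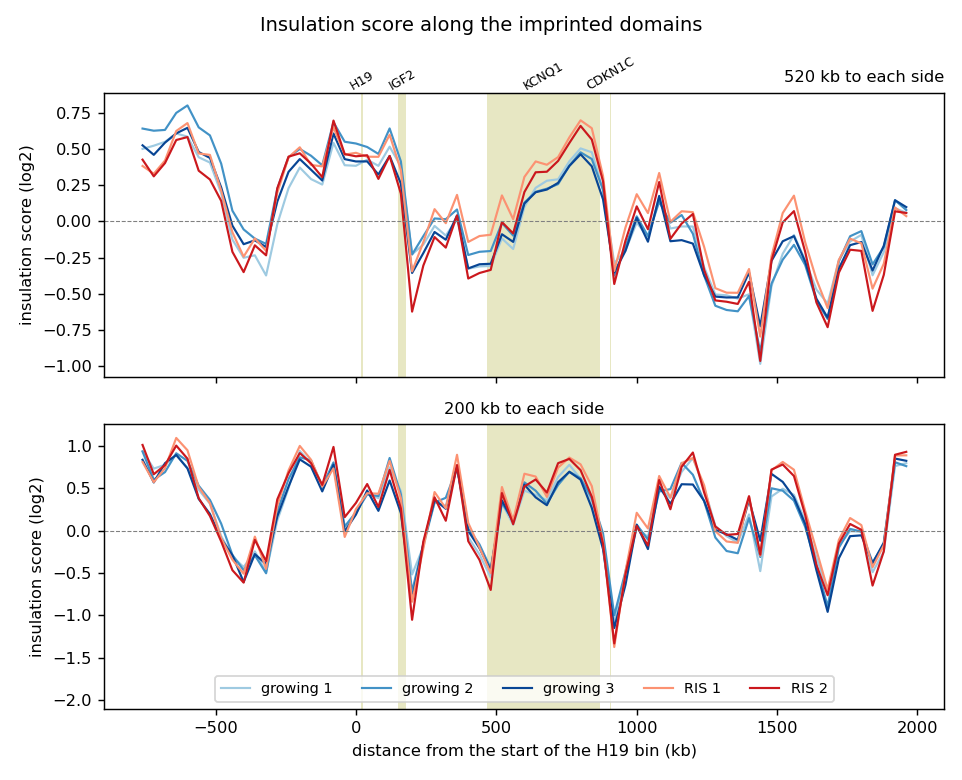
Insulation score (log2) of each Hi-C library against the distance in kb from the start of the H19 bin, with 520 kb (top) and 200 kb (bottom) to each side of a position. At the border between CDKN1C and SLC22A18 in the bottom panel the RIS libraries sit at -1.37 and -1.33, below the growing libraries at -1.09, -1.0 and -1.15.

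Capture Hi-C covered H19 and IGF2 in bins of 10 kb, in the captured region chr11:1743417-2349463, but not KCNQ1 or CDKN1C. Of its 61 bins 42 had values, and the region held 208751 and 170673 recovered contacts in growing and 143119 and 107636 in RIS libraries. In capture Hi-C the expected contact was the average at the same distance over pairs of all 61 captured regions, not over chromosome 11. Capture levels are therefore not comparable with the Hi-C levels. The bin from 2010001 to 2020000 holds all of H19 by the coordinates used to choose it (2.016 to 2.02 Mb), and it had no values. Capture values given for H19 are therefore those of the next bin, from 2020001 to 2030000. That bin holds all 5 control region motif matches, and H19 only by the upstream extension of this annotation. Its contacts with the 3 IGF2 bins were higher towards the far end of IGF2. They were 1.56 and 1.12 in growing and 1.48 and 1.10 in RIS libraries for the first IGF2 bin, 3.61 and 3.43 against 3.91 and 4.18 for the second, and 7.84 and 8.0 against 8.62 and 9.39 for the last, from 2170001 to 2180000, which holds the printed IGF2 match. The last rested on 1785 and 1510 against 1371 and 1069 contacts and was the first of 41 partners of the H19 bin in both states.

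The higher values of the second and the last IGF2 bin in RIS did not pass limma, with log2 fold changes of 0.11 (standard error 0.10, adjusted p = 0.62) and 0.06 (standard error 0.09, adjusted p = 0.77), and did pass voom on the recovered contacts, at 0.50 (adjusted p = 0.022) and 0.49 (adjusted p = 0.020). The bin used for H19 and the IGF2 bins also shared a partner on the side of the chromosome end, the bin of TNNI2, a troponin gene, from 1860001 to 1870000. The bin used for H19 contacted it at 4.48 and 4.73 in growing and 5.90 and 6.39 in RIS libraries. IGF2 contacted it at 4.29 and 4.14 in growing and 5.71 and 5.90 in RIS libraries. Among the 38 partners of IGF2 it had rank 5 in growing and rank 1 in RIS cells. This bin was picked after its values were seen.

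In the balanced values of the capture libraries, too, contact of the DNA past TH with the H19-IGF2 side was lower in RIS. Over 180 pairs that cross 2.2 Mb, from bins between 2 and 2.2 Mb, the observed over expected contact was 0.813 and 0.808 in growing against 0.671 and 0.578 in RIS libraries. IGF2 with all bins after it measured 0.424 and 0.437 against 0.359 and 0.312, and H19 with the bins after IGF2 measured 1.65 and 1.65 against 1.32 and 1.06. Neither pair of groups overlapped, which held for most of the 12 capture blocks. The whole captured region was lower too, at 1.55 and 1.57 in growing against 1.46 and 1.37 in RIS libraries. The bins between 2 and 2.2 Mb with each other overlapped, at 1.86 and 1.84 against 1.83 and 1.85. Every capture block that did not overlap had an exact permutation p of 0.333, the smallest that 2 against 2 libraries can give.

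These lower values depended on balancing. Without it, contact across 2.2 Mb differed by -0.02 on the log2 scale in place of -0.38, and that of IGF2 with the bins after it by 0.02 in place of -0.36. That of H19 with the bins after IGF2 differed by -0.15 in place of -0.48. The near side was then higher in RIS, by 0.36 for the bins between 2 and 2.2 Mb with each other, by 0.43 for IGF2 with the bins before the H19 bin and by 0.33 for H19 with the bins before it. The bins past 2.2 Mb with each other were higher in RIS too, by 0.07 with and by 0.49 without balancing. The whole captured region differed by -0.14 with and by 0.25 without balancing. Contact across the border was therefore lower relative to the near side with and without balancing, but without balancing this came mostly or wholly from higher near-side values. Contact across 2.2 Mb over contact between 2 and 2.2 Mb in the same library differed by -0.37 with and by -0.38 without balancing, at -1.20 and -1.19 in growing and -1.44 and -1.68 in RIS libraries with balancing. For IGF2 the bins after it over those before the H19 bin gave -2.47 and -2.42 in growing and -2.91 and -3.03 in RIS libraries, a difference of -0.52 with and -0.41 without balancing. For H19 the same measure gave -0.57 and -0.63 against -0.95 and -1.19, a difference of -0.47 with and -0.48 without balancing. Each of these 3 contrasts had an exact permutation p of 0.333 (adjusted 0.389).

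**Figure D5:**
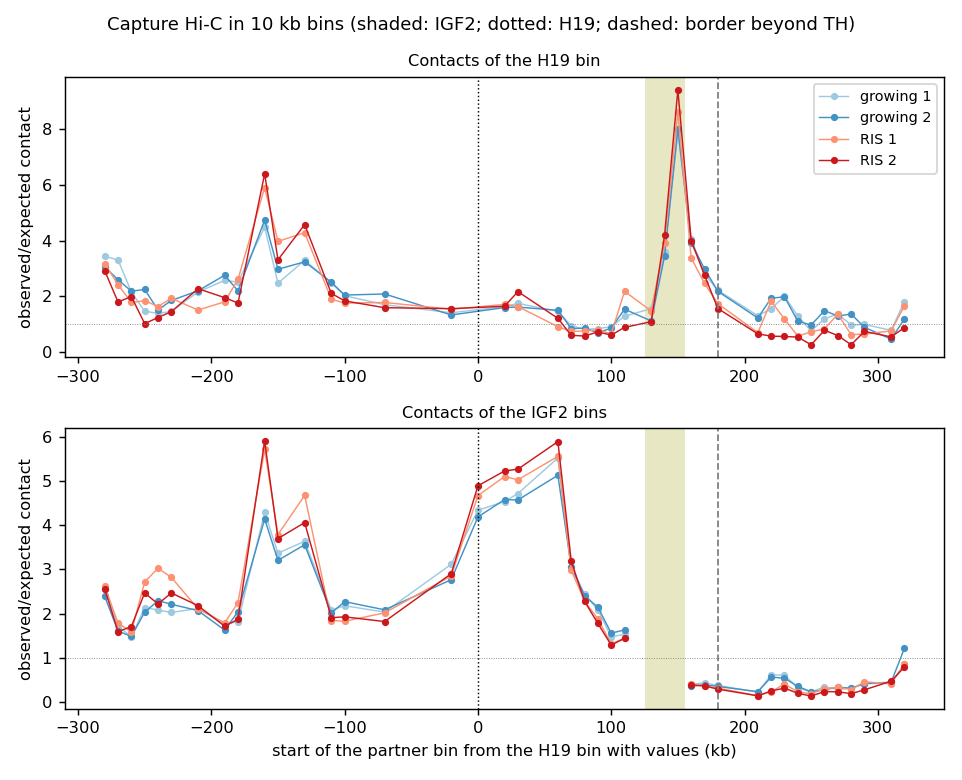
Observed over expected contact (vertical axes) of the H19 bin and of the 3 IGF2 bins with the other 10 kb bins of the captured region in each capture Hi-C library, against the start of the partner bin in kb from the H19 bin. Expected contact is the average at the same distance over all captured regions. Shading marks IGF2, the dotted line H19 and the dashed line the border past TH. The H19 curve peaks at the last IGF2 bin, at 7.84 and 8.0 in growing and 8.62 and 9.39 in RIS libraries, and past the dashed line the RIS curves, of balanced values, mostly lie below the growing curves.

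Single capture pairs gave no call by limma on balanced values. Of the 859 pairs tested 0 passed, with 166 at an unadjusted p under 0.05, while 0.034% of the 329311 pairs over all captured regions were called. Voom on the recovered contacts called 103 pairs, 102 of them higher in RIS. Over all captured regions it called 4.68% of pairs, 2.64% as higher. The sign of the median differed between the methods, with -0.23 by limma and 0.17 by voom over the pairs of the region, while the medians over all captured regions were 0.00 by both. Of the 102 pairs that voom called higher, 80 had a limma log2 fold change above 0. Across 2.2 Mb 147 of 178 tested pairs had a limma log2 fold change under 0, with a median of -0.40, whereas the voom median was 0.03. Over the whole captured region it was 627 of 859 pairs. The count by voom was 64 without growing replicate 1, 33 without growing replicate 2, 117 without RIS replicate 1 and 106 without RIS replicate 2.

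The members lay on the gene-rich side of chromosome 11 in both states. The A/B score, the first component of the contact correlation matrix in bins of 120 kb with positive values on the gene-dense side, averaged 0.40, 0.35 and 0.32 over the 7 member bins with a score in growing and 0.45 and 0.41 in RIS libraries. The RIS values did not overlap with the growing ones, and the difference was 0.07 (exact permutation p = 0.2). Relative to the rest of the chromosome the members did not move up, as the share of its bins with a lower score was 65.3% in growing and 63.3% in RIS cells. The KCNQ1 bin from 2520001 had the lowest scores of the members, at -0.0023, 0.031 and -0.125 in growing and 0.264 and 0.101 in RIS libraries. The bin with CDKN1C, from 2880001, had the highest in growing cells, at 0.69, 0.69 and 0.71, and 0.57 and 0.57 in RIS cells.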

How the data were processed

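Hi-C libraries (3 growing, 2 RIS) and capture Hi-C libraries (2 growing, 2 RIS) were grouped by their labels. The authors aligned reads to hg19 with HiC-Pro, filtered artefactual pairs with HiC-Pro and diffHic, and took out duplicates with samtools. What they deposited is a signal per library, contacts counted between bins of 40 kb (Hi-C) or 10 kb (capture Hi-C) and balanced by ICE, which evens out the sums of the bins. They checked read quality with FastQC. Lengths of all nuclear chromosomes equalled those of GRCh37, from which sequence and annotation were taken. After division by a factor for each bin, values were whole contacts, within a tolerance of 0.05 for small counts, for at least 99.86% of values in every library.

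The members, lists and tests were chosen with earlier results of these data known. Pairs of bins up to 2 Mb apart with a mean scaled value of at least 5 were tested over the genome with limma on log2(value + 0.5) after loess on abundance (span 0.3, 4 iterations), with Benjamini-Hochberg adjustment at 5%. Capture pairs, up to 2.39 Mb apart within a captured region, were tested alike, over 61 regions. Voom on recovered contacts was an alternative. limma was used in place of the count test of the methods because balanced values are not counts. Insulation scores were tested with limma over all positions. For single values, two-sided exact permutation tests over libraries were used. Named were the members, their neighbours by position, pairs between members and all called pairs of the window if at most 5. Up to 3 partner bins per member, highest in growing cells, and part of the borders were also named. The TNNI2 capture bin, the 7 contrasts and the unbalanced settings were chosen after values were seen. The pair and insulation steps were tested on simulated data. Alternatives covered normalization, pseudocount, minimum value, distance, windows, blocks and each library left out in turn. Balancing can amplify noise in thinly covered bins, and intervals for counting error are not given because duplicates were removed without molecular identifiers. Software was R 4.3.3 with limma 3.58.1, and Python 3.11.15 with numpy 2.4.6, pandas 2.3.3, scipy 1.17.1 and matplotlib 3.10.9.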

Additional observations from a re-analysis of the deposited data

How the results depend on the processing

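Contact within either domain and the A/B score of the members kept their direction under all alternatives run. With a library left out, contact within the H19-IGF2 domain differed by 0.09 to 0.16 and within the KCNQ1-CDKN1C domain by 0.20 to 0.21. Contact between the domains turned negative for the median over pairs (-0.089) and in the replicate block (-0.051), and ran from -0.39 to 0.40 with a library left out. The count of called window pairs, 3 by limma, was 18 by voom, 1 with a pseudocount of 1, 6 with 0.1, 1 with a minimum of 10, 0 with a minimum of 1, 0 with the replicate block, 0 with the duplicate class as a block, 0 to 1 with a library left out, 0 on contacts not balanced and 1 to 19 by voom with a library left out. The count of insulation positions, 24, was 29 with the replicate block, 12 to 26 with a library left out, and for 200 kb 13 to 17, with 14 without growing replicate 1. The capture count was 0 under every limma setting, the replicate block included, and 103 by voom, or 33 to 117 with a library left out, with 64 without growing replicate 1 and 106 without RIS replicate 2. Among single pairs of member bins, all without a call, the log2 difference turned sign, ranges being those with a library left out, for H19 with the first IGF2 bin (0.35 by voom, 0.0693 with the replicate block, -0.39 to 0.30), for H19 with the end of KCNQ1 (-1.74 to 3.92), for H19 with CDKN1C (0.12 by voom, 0.59 with the duplicate class, -1.74 to 1.88), for the first IGF2 bin with the end of KCNQ1 (-0.20 with scaling to the total only, -0.0359 with a minimum of 1, -1.38 to 2.64), for the second IGF2 bin with the end of KCNQ1 (0.28 with the replicate block, -0.84 to 0.26) and for the end of KCNQ1 with CDKN1C (-0.00515 with a minimum of 1, -0.0423 with the duplicate class, -0.24 to 0.25). The cause of these changes was not tested. Whether the replicate numbers pair the libraries is not stated. Deviations of same-numbered Hi-C libraries correlated at 0.003 and -0.001. This cannot settle the question, because the deviations of only 2 RIS libraries mirror each other. Few contacts limit the H19 bin and pairs between the domains.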
